A study of Mus musculus with 11 samples.

Results

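The Kruppel-like factors studied here were Klf2, Klf3, Klf4, Klf6, Klf7, Klf10 and Klf13, the 7 genes that were found by symbol among the 32285 genes of single-cell RNA sequencing matrices of the mouse brain. All 7 were present once, and all 7 passed the filter on low counts in endothelial cells and in microglia. Each of the 11 libraries held cells from the right brain of 1 mouse. The sham + WT group had 3 mice (replicates 1, 2 and 3), the sham + Lrg1-/- group 3 (replicates 1, 2 and 5), the MCAO/R + WT group 2 (1 and 2) and the MCAO/R + Lrg1-/- group 3 (1, 2 and 5). Values are listed below in that order. MCAO/R is a transient occlusion of the middle cerebral artery by a suture followed by reperfusion, and sham mice had the surgery without the suture in the artery. The study's methods give several reperfusion times of up to a day after an hour of occlusion, and its discussion speaks of effects at an hour, so that the reperfusion time of these libraries is uncertain. WT mice were male C57BL/6 mice of 8 to 10 weeks. Lrg1-/- mice carried a germline deletion from exon 1 to the stop codon in exon 2 of Lrg1, the gene of a secreted glycoprotein that modulates transforming growth factor beta signalling, in every cell, on a C57BL/6 background named as both C57BL/6J and C57BL/6N, and were given as 3 months old. The sex of the Lrg1-/- mice is not given, and they came from another source than the WT mice. Age and source therefore moved with genotype and cannot be told apart from it. The substrain of the WT mice is not given, and no group combined the deletion with any other allele or agent. The p-values measure the spread between these mice, and the comparisons below share groups, so that they are not independent of each other.

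Kruppel-like factors are transcription factors whose 3 zinc fingers at the C terminus bind CACCC and GC boxes, while their N-terminal parts differ and recruit activators or repressors. In endothelium, laminar blood flow raises Klf2 and Klf4 through the kinase Mapk7 and the Mef2 factors, and the pair keep vessels quiescent and resistant to clotting and leukocyte adhesion. In microglia and macrophages, Klf2 and Klf4 are known for tuning inflammatory activation, and several members are immediate early genes that respond within minutes to injury, cytokines or handling of tissue.

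Total UMIs per library ranged from 37159497 to 171813031, and 124491 of the 132437 barcodes past the quality limits remained after doublet removal, with library medians of 3190 to 11504 UMIs per barcode. Clusters named from markers (called endothelial cells for endothelial-like, microglia for microglia-like, and so on) gave 333 to 2881 endothelial cells and 270 to 4577 microglia per library. Lrg1 was at 7.56, 23.0 and 7.65 CPM in sham + WT and at 450.0 and 538 CPM in MCAO/R + WT endothelial cells and had no UMI in either cell type of any Lrg1-/- library. The 8 endothelial markers summed to 14295 to 21396 CPM in endothelial cells and the 12 microglial markers to 9689 to 19216 CPM in microglia. Of the cells that scored best for microglia, 60.6% were left unnamed in the MCAO/R + Lrg1-/- group (28.0% to 90.1% per mouse) and 44.2% in the sham + Lrg1-/- group, against 4.37% and 4.58% in the MCAO/R + WT and sham + WT groups. For endothelial cells these shares were 34.9% (18.7% to 67.2% per mouse), 37.9%, 6.97% and 17.8% in the same order. In microglia, 4 haemoglobin genes summed to 15.2 to 21.0 CPM in the 5 WT libraries and to 6986 to 18783 CPM in the 6 Lrg1-/- libraries, and 7 choroid plexus markers to 165 to 531 CPM and 2697 to 9891 CPM. In endothelial cells, the haemoglobin sums were 388 to 1550.2 CPM in WT and 13841 to 25571 CPM in Lrg1-/- libraries, and the choroid plexus sums 179 to 932 CPM and 2428 to 10423 CPM. Of the 6 Lrg1-/- libraries, 4 held round numbers of barcodes (15500, 9000, 5650 and 8500), and pairs of libraries shared 5 to 146 barcodes. The part of these in the differences between genotypes below was not tested, apart from a fit without haemoglobin-rich cells and a fit with more of the mixed clusters named, both given below.

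In sham + WT mice, the members fell into those highest in endothelium and those highest elsewhere among 13 named cell types. Levels are in CPM, UMIs scaled to a common total, on TMM-adjusted library totals, and 3′ tags give a level that should be compared between cell types and not between genes. Klf2, the flow-induced endothelial factor, had its highest mean in endothelial cells at 4976 ± 287 CPM (SD, n = 3), not separated by the SDs from border-associated macrophages at 4665 ± 477 CPM. Klf4, its closest relative in endothelium and a factor of monocyte differentiation and pluripotency, was also highest there at 2052 ± 145 CPM. Klf10, the transforming growth factor beta-inducible early gene, was highest in endothelial cells at 138 ± 15.1 CPM, not separated by the SDs from monocyte-derived and dendritic cells at 127 ± 12.3 CPM. For Klf7, known from axon growth, neural progenitors and neuroblasts (598 ± 52.6 CPM) came before endothelial cells (332 ± 7.56 CPM). For Klf13, known as an activator of the chemokine gene Ccl5 in T cells, oligodendrocytes (329.8 ± 8.85 CPM) and endothelial cells (322 ± 6.62 CPM) were not separated. Klf3, a repressor that recruits CtBP, had its highest mean in T and NK cells (245 ± 78.1 CPM). This was not separated by the SDs from monocyte-derived and dendritic cells (179 ± 47.9 CPM). Endothelial cells were in the fourth place for Klf3 at 146 ± 13.3 CPM. Klf6, an injury-induced early gene, was highest in border-associated macrophages (5222 ± 599.8 CPM), with endothelial cells in the fifth place (1046 ± 26.1 CPM). Microglia came second for Klf6 (2545 ± 249 CPM), not separated by the SDs from monocyte-derived and dendritic cells (1696 ± 806 CPM). Microglia held the fourth place for Klf2, the fifth for Klf3 and Klf4, the seventh for Klf10, the eighth for Klf7 and the tenth for Klf13.

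**Figure D1:**
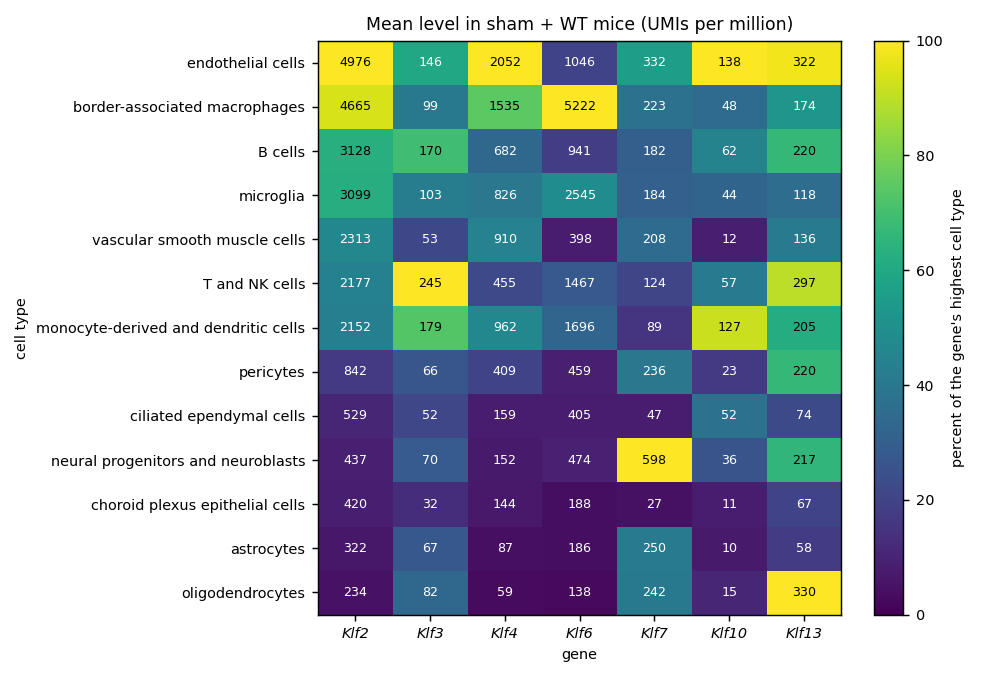
Mean CPM of the 7 members in the named cell types of the sham + WT group (3 mice), scaled within each gene to its highest cell type, with genes in columns and cell types in rows. Klf2, Klf4 and Klf10 peak in endothelial cells, Klf6 in border-associated macrophages, Klf3 in T and NK cells, Klf7 in neural progenitors and neuroblasts, and Klf13 in oligodendrocytes. For Klf2, Klf3, Klf10 and Klf13 the peak is not separated by the SDs from the next cell type.

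Across these 13 cell types, the log2 levels of Klf2 and Klf4 followed each other with a Pearson correlation of 0.972, which made each the most similar gene to the other among 14632 genes, as a description over cell types of the same 3 libraries. Next to Klf2 came Ets2 (0.956) and Calcrl (0.939), and next to Klf4 Ets2 (0.948) and Gm17056 (0.946). The genes most like Klf6 were Tm6sf1 and Kctd12 (both 0.949) and Gpr160 (0.938), and those most like Klf3 were Usp12 (0.935), Il2rg (0.928) and Ern1 (0.924). For Klf7 they were Wiz (0.899), Atg4b (0.899) and Rere (0.888), for Klf10 Pitpna (0.895), Gosr2 (0.894) and Bin3 (0.888), and for Klf13 Lbr (0.904), Trabd (0.886) and Dync1li1 (0.874). The first genes of Klf7, Klf10 and Klf13 were thus less similar to them than Klf2 was to Klf4.

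The 7 genes lie on 7 chromosomes (GRCm38, GENCODE M21). Klf2 is at chr8:72319033-72321656 on the plus strand, Klf4 at chr4:55527143-55532466 on the minus strand, Klf6 at chr13:5861482-5870394 on the plus strand and Klf10 at chr15:38291463-38300706 on the minus strand. Klf3 (chr5:64803388-64832901, plus strand) overlaps Gm20033, Klf7 (chr1:64029447-64122282, minus strand) overlaps Gm13748, and Klf13 (chr7:63886351-63938915, minus strand) overlaps Gm27252 and E030018B13Rik, so that reads of the overlapping parts are uncertain where counting did not use the strand. Promoter sequence of 250 bases upstream of the RefSeq start (GRCm38.p6) was read for 6 of the 7 genes. The stretches before Klf2, Klf4 and Klf6 are shown because these members differed most between genotypes in microglia after MCAO/R below. RefSeq starts can lie inside the genes as placed above. Only bases outside the gene are shown, while the counts below are over whole windows. They are written in the direction of transcription, and capitals mark matches to the GC box (GGGCGG on either strand) that Kruppel-like and Sp factors bind and to the MEF2 site, through which Mef2 factors act.
Klf2, chr8:72318812-72319032, plus strand: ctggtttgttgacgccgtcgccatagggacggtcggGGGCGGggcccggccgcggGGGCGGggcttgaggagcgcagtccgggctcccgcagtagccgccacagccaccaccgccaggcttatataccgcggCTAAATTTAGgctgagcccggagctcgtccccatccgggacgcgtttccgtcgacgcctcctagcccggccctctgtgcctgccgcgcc
Klf4, chr4:55532476-55532725, minus strand: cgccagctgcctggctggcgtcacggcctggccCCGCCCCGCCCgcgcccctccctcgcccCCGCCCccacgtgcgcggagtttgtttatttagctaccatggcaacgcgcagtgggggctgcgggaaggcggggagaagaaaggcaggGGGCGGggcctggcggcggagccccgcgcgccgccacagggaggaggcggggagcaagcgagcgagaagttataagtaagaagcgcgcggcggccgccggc
Klf6, chr13:5861239-5861481, plus strand: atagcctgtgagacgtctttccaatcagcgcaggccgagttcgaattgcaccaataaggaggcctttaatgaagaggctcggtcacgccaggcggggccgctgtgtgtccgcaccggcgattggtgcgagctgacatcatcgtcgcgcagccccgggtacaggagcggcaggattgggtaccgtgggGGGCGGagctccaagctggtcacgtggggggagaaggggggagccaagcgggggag
A MEF2 site was found in the Klf2 promoter, 118 bases before its RefSeq start, and in none of the other 5, while 2.92% of 32851 promoters of the same length held one. GC boxes were found in 6 of 6 members' promoters, against 32.7% of all promoters, with 2 in Klf2, 4 in Klf4 and 1 in Klf6. The letters CACCC on either strand were found in 4 of 6, against 52.0% of all promoters, and the CArG box of serum response factor in 0 of 6, against 1.47%. These are matches of letters in one window and say nothing about binding in these mice.

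In endothelial cells of WT mice, MCAO/R was followed by higher Klf3, Klf6 and Klf7 and by lower Klf10, while in Lrg1-/- mice it was followed by lower Klf4 and Klf10 and by no member called higher. After MCAO/R all 7 members were lower in every Lrg1-/- mouse than in both WT mice, as were 24.3% of the 16362 genes tested, and Klf2, Klf3, Klf6 and Klf7 passed the test. After sham surgery no member passed the test between genotypes. A member counted as called where edgeR's quasi-likelihood test gave a Benjamini-Hochberg adjusted p under 0.05 and a fold change over 1.28. Differences are estimates on the log2 scale throughout, with their SE where one is given.

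**Figure D2:**
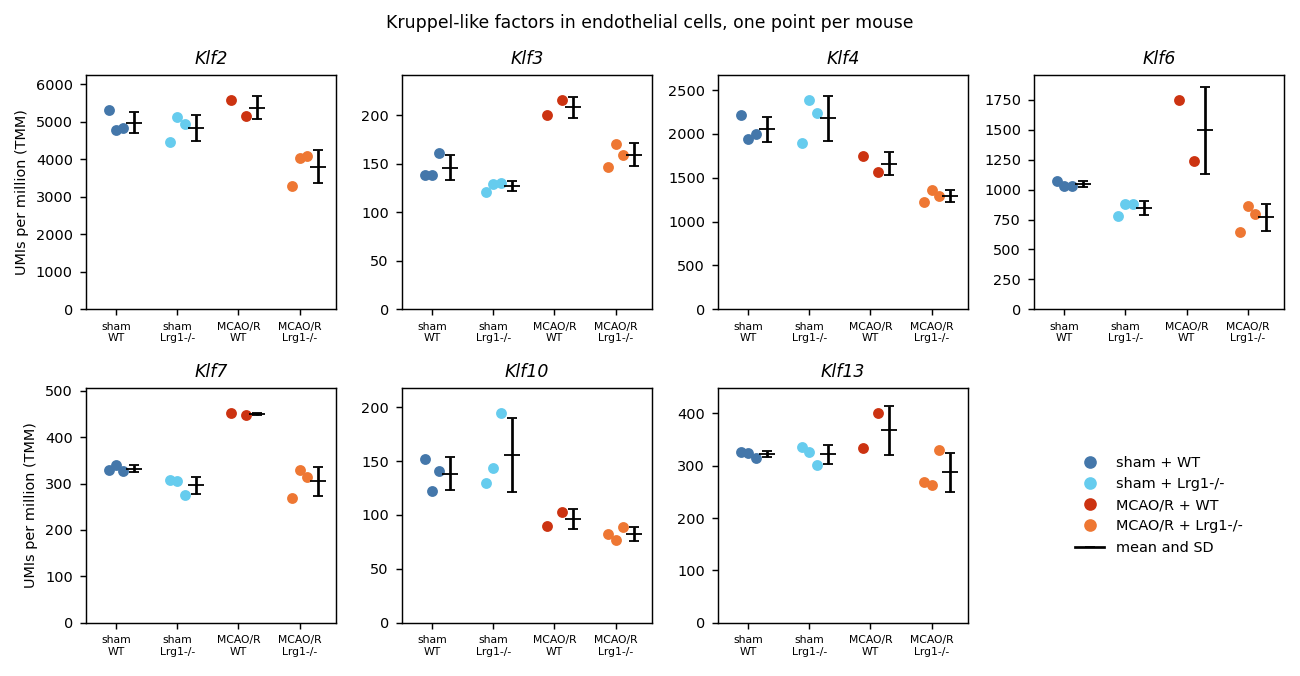
Levels of the 7 members in endothelial cells, in CPM on TMM-adjusted totals, with 1 point per mouse, a bar for the group mean and the 4 groups along the x axis. In each panel the 3 MCAO/R + Lrg1-/- points lie under the 2 MCAO/R + WT points, most widely for Klf6.

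Among the flow-responsive pair, Klf2 in endothelial cells was at 5306, 4784 and 4837 CPM in sham + WT and 4458, 5138 and 4932 CPM in sham + Lrg1-/- mice. After MCAO/R Klf2 was at 5590.4 and 5167 CPM in WT and 3293, 4029.5 and 4092 CPM in Lrg1-/- mice. The 3 MCAO/R + Lrg1-/- values were the lowest of all 11, and the sham + WT values overlapped with those of sham + Lrg1-/- and MCAO/R + WT mice. Klf2 was lower in Lrg1-/- than in WT mice after MCAO/R (-0.50 ± 0.13 SE, adjusted p = 0.0143), a call that was lost without MCAO/R + WT replicate 1 (-0.44, adjusted p = 0.0931, 0.000177 to 0.131 over all alternatives). The stroke differences were 0.11 in WT (adjusted p = 0.610) and -0.35 in Lrg1-/- mice (adjusted p = 0.0542), the latter called in some other settings, among them DESeq2 (-0.36, adjusted p = 0.00509, 0.00509 to 0.176 over all alternatives). Klf4 was at 2215, 1938 and 2004 CPM in sham + WT and 1896, 2391 and 2243 CPM in sham + Lrg1-/- mice. After MCAO/R Klf4 was at 1751 and 1569 CPM in WT and 1222, 1365 and 1296 CPM in Lrg1-/- mice. Both MCAO/R groups lay under both sham groups, and the Lrg1-/- mice lay under the WT mice after MCAO/R. Klf4 fell after MCAO/R in Lrg1-/- mice (-0.75 ± 0.12 SE, adjusted p = 0.000774). The fall in WT mice (-0.31, adjusted p = 0.119) and the difference between genotypes after MCAO/R (-0.36, adjusted p = 0.0542) did not pass, and the second passed in other settings, among them DESeq2 (-0.38, adjusted p = 0.0104) and without MCAO/R + Lrg1-/- replicate 2 (-0.41, adjusted p = 0.0481, 0.0104 to 0.273 over all alternatives).

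Klf6 in endothelial cells was at 1076, 1029 and 1033 CPM in sham + WT and 783, 883 and 882 CPM in sham + Lrg1-/- mice. After MCAO/R Klf6 was at 1752 and 1239.7 CPM in WT and 642, 862 and 798 CPM in Lrg1-/- mice. The MCAO/R + WT values were the highest, 1 of them well above the other, and the sham + WT values lay above every Lrg1-/- value. Klf6 was lower in Lrg1-/- than WT mice after MCAO/R (-0.96 ± 0.15 SE, adjusted p = 0.000648), the widest such difference among the members in endothelial cells, and this call held without any 1 library. Its rise after MCAO/R in WT mice (0.52 ± 0.15 SE, adjusted p = 0.0293) rested on single libraries, since it did not pass without any 1 of the 3 sham + WT mice (0.50 to 0.54, adjusted p up to 0.0818) and became 0.24 (adjusted p = 0.434, 0.00561 to 0.434 over all alternatives) without MCAO/R + WT replicate 1. Klf7 was at 328, 341 and 327 CPM in sham + WT and 307, 305 and 275 CPM in sham + Lrg1-/- mice. After MCAO/R Klf7 was at 452 and 448 CPM in WT and 269.6, 330.2 and 314 CPM in Lrg1-/- mice. Only the MCAO/R + WT group stood apart from the other 3, above them. Klf7 rose after MCAO/R in WT mice (0.44 ± 0.11 SE, adjusted p = 0.0100), a call lost without MCAO/R + WT replicate 1 (0.43, adjusted p = 0.0656, 7.95e-05 to 0.143 over all alternatives), and was lower in Lrg1-/- mice after MCAO/R (-0.56 ± 0.11 SE, adjusted p = 0.00203).

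Klf3 in endothelial cells was at 138, 139 and 161 CPM in sham + WT and 121, 129 and 130.3 CPM in sham + Lrg1-/- mice. After MCAO/R Klf3 was at 201 and 216 CPM in WT and 147, 171 and 159.5 CPM in Lrg1-/- mice. Within each genotype MCAO/R mice lay above sham mice, and within each surgery WT lay above Lrg1-/- mice. Klf3 rose after MCAO/R in WT mice (0.51 ± 0.10 SE, adjusted p = 0.00303) and was lower in Lrg1-/- mice after MCAO/R (-0.39 ± 0.10 SE, adjusted p = 0.0148), the latter not past the threshold without MCAO/R + WT replicate 2 (-0.36, adjusted p = 0.0790, 0.00156 to 0.0922 over all alternatives). Its difference after MCAO/R in Lrg1-/- mice (0.33, adjusted p = 0.0247) was under the fold limit. Klf10 was at 152, 122 and 141 CPM in sham + WT and 129, 144 and 195 CPM in sham + Lrg1-/- mice. After MCAO/R Klf10 was at 90.1 and 103 CPM in WT and 82.2, 76.4 and 88.7 CPM in Lrg1-/- mice. Sham values lay above MCAO/R values in both genotypes, with the 1 high value in a sham + Lrg1-/- mouse. Klf10 fell after MCAO/R in Lrg1-/- mice (-0.92 ± 0.14 SE, adjusted p = 0.000732) and in WT mice (-0.52 ± 0.15 SE, adjusted p = 0.0286), and the second call was lost without sham + WT replicate 1 or 3 or without either MCAO/R + WT mouse (-0.43 to -0.60, adjusted p from 0.0588 to 0.218). Klf13 was at 327, 325 and 315 CPM in sham + WT and 336, 327 and 302 CPM in sham + Lrg1-/- mice. After MCAO/R Klf13 was at 334 and 401 CPM in WT and 269, 263 and 329.9 CPM in Lrg1-/- mice. One MCAO/R + WT value was the highest and the groups were otherwise close, and its difference between genotypes after MCAO/R (-0.36, adjusted p = 0.0428) stayed under the fold limit. It was called by DESeq2 (-0.37, adjusted p = 0.0143) and in other settings, among them without sham + WT replicate 2 (-0.38, adjusted p = 0.0425), MCAO/R + WT replicate 1 (-0.48, adjusted p = 0.0362) or MCAO/R + Lrg1-/- replicate 5 (-0.46, adjusted p = 0.00938, 0.00938 to 0.268 over all alternatives).

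In counts, 3 of the 7 members were called higher and 1 lower in endothelial cells after MCAO/R in WT mice, where 9.23% of the 16362 genes tested were called higher and 11.0% lower. In Lrg1-/- mice 2 of 7 were called lower, against 9.25% of genes. Between genotypes after MCAO/R 4 of 7 were called lower, against 11.7% of genes. The median difference of the 7 in that comparison was -0.39, against 0.03 over all genes. After sham surgery edgeR's test called 0 of 7, with 0 at an unadjusted p under 0.05 and 0 by DESeq2, against 16.6% of genes called in either direction. Klf3 (-0.20, adjusted p = 0.158), Klf6 (-0.30, adjusted p = 0.158) and Klf7 (-0.17, adjusted p = 0.268) were nevertheless lower in every Lrg1-/- mouse than in every WT mouse after sham surgery, as were 21.6% of genes. For the difference between the stroke effects of the 2 genotypes, edgeR's test called 0 of 7, against 2.63% of genes. Of the 7, 5 had an unadjusted p under 0.05 (Klf2, Klf4, Klf6, Klf7 and Klf13), and DESeq2 called 3, which were Klf2 (-0.48), Klf6 (-0.69) and Klf7 (-0.42). Klf6 also passed in edgeR's test without MCAO/R + WT replicate 2 (-0.92, adjusted p = 0.0459, 0.0302 to 0.393 over all alternatives).

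**Figure D3:**
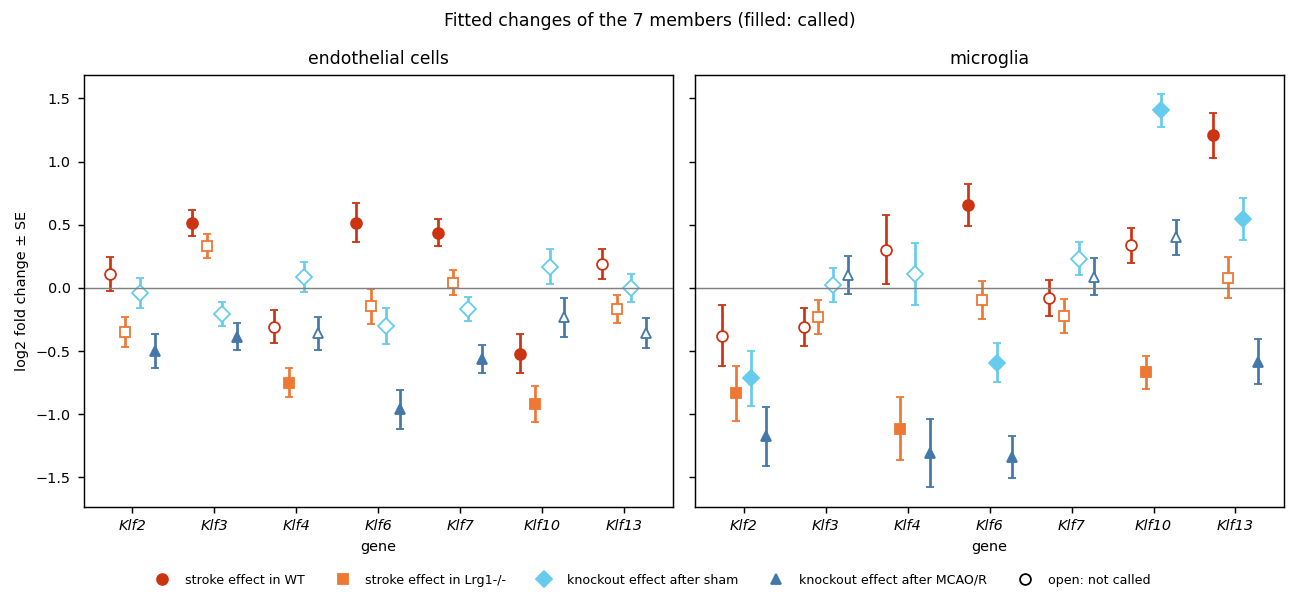
Log2 differences of the 7 members in endothelial cells and in microglia for the 4 comparisons, with points for the estimate, bars for its SE and filled points for calls (edgeR's quasi-likelihood test, 3, 3, 2 and 3 mice). After MCAO/R, the endothelial estimates between genotypes all lie under 0, from -0.23 for Klf10 to -0.96 for Klf6, while in microglia those of Klf2, Klf4 and Klf6 lie under -1.

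The endothelial cells came from 4 clusters whose make-up moved with surgery and with genotype. The cluster led by Spock2, Flt1 and Cxcl12 held 69.9% to 81.5% of the endothelial cells of sham + WT mice and 0.556% to 0.899% of those of MCAO/R + WT mice. The cluster led by Adgrl4, Slco1a4 and Flt1 held 47.1% to 64.0% in MCAO/R + WT and 19.0% to 33.3% in MCAO/R + Lrg1-/- mice, and the one led by Flt1, Spock2 and Itm2a 13.8% to 24.3% in sham + WT and 39.7% to 44.4% in sham + Lrg1-/- mice. The 7 venous markers summed to 5415 to 5909 CPM in MCAO/R + WT and 1904 to 3724 CPM in MCAO/R + Lrg1-/- endothelial cells. This sum also depends on levels within cells and does not give a share of venous cells. The cluster led by Ctla2a and the venous marker Lcn2 held 24.4% to 47.3% in MCAO/R + WT and 28.5% to 67.0% in MCAO/R + Lrg1-/- mice. Beyond the values within clusters, the part of this make-up in the members' differences was not tested. Those values are CPM on plain totals, taken in clusters with at least 2 libraries of each group and given as a description. Between genotypes after MCAO/R Klf3, Klf6 and Klf7 were lower without overlap in Lrg1-/- mice in 3 of 3 clusters, Klf2 and Klf4 in 2 of 3, Klf10 in 1 of 3 and Klf13 in 0 of 3. That made 14 of 21 pairs of a member and a cluster lower and 0 higher. Of such pairs over all genes tested, 18.0% were lower and 19.5% higher without overlap (37.5% in either direction). In the Ctla2a cluster Klf6 was at 1263 to 1728 CPM in MCAO/R + WT and 617 to 792 CPM in MCAO/R + Lrg1-/- mice. After sham surgery Klf3 and Klf6 were lower in Lrg1-/- mice in 2 of 3 clusters and Klf7 in 1 of 3, and Klf13 was higher in 1 of 3. With 5 of 21 pairs lower and 1 higher, the members were near the 28.4% of all pairs without overlap. After MCAO/R in Lrg1-/- mice Klf4 and Klf10 were lower in 3 of 3 clusters and Klf2 in 1 of 3, while Klf3 was higher in 3 of 3 and Klf7 and Klf13 in 1 of 3 (29.5% of all pairs). In WT mice Klf3 and Klf13 were higher after MCAO/R in 2 of 2 clusters and Klf6 and Klf7 in 1 of 2, while Klf4 and Klf10 were lower in 1 of 2 (42.0% of all pairs).

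The regulators above Klf2 and Klf4 were read from a list of 10 genes of the CCM complex, the Mapk7 cascade and the Mef2 factors, all tested in endothelial cells. Its genes were not sorted by whether they raise or lower Klf2 and Klf4, so its counts and median give no direction for them. After MCAO/R 3 of 10 were lower in Lrg1-/- than WT mice and 0 higher, with Mef2a (-0.97, adjusted p = 0.000123), the kinase gene Map3k3 (-0.84, adjusted p = 0.000284) and the CCM gene Ccm2 (-0.40, adjusted p = 0.00624), and the median of the 10 was -0.30, where 11.7% of all genes were called lower. After sham surgery 4 of 10 were lower in Lrg1-/- mice, Map3k3 (-0.78), Mef2a (-0.72), Mef2c (-0.50) and Heg1 (-0.36), with no endothelial difference in Klf2 or Klf4 past the threshold. There 1539 of 16362 genes were called lower, and 16.6% in either direction. In WT mice 1 of 10 was called after MCAO/R, Mef2c (-0.83, adjusted p = 0.000160), a share near the 11.0% of all genes called lower. In Lrg1-/- mice 1 of 10 was called, Mapk7 (0.58, adjusted p = 0.0493), where 1897 of 16362 genes were called higher. Of 6 genes known to be raised by Klf2 or Klf4 in endothelium, 1 was called between genotypes after MCAO/R, the gap junction gene Gja5, which was higher in Lrg1-/- mice (1.20, adjusted p = 0.0470). In that comparison 2227 of 16362 genes were called higher, so that 1 of 6 was near the share of all genes. After MCAO/R the sphingosine-1-phosphate receptor gene S1pr1 rose in WT (0.66) and Lrg1-/- mice (0.51), the angiopoietin receptor gene Tek fell in both (-1.03 and -0.82), and Thbd, which encodes thrombomodulin, fell in Lrg1-/- mice (-0.55). Of 7 genes known to be held down by Klf2 or Klf4, Angpt2 rose after MCAO/R in WT mice (2.64), and Angpt2 (2.62) and Ccl2 (2.49) rose in Lrg1-/- mice. For these stroke effects, 9.23% of all genes were called higher and 11.0% lower in WT mice. In Lrg1-/- mice 1897 of 16362 genes were called higher and 9.25% lower. Between genotypes after MCAO/R 0 of these 7 were called by edgeR's test, with 0 at an unadjusted p under 0.05.

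Klf10 belongs to the early response to transforming growth factor beta, of which 10 genes with Klf10 among them were tested in endothelial cells. After MCAO/R in Lrg1-/- mice 8 of 10 were lower and 0 higher (median -0.80), against 9.25% of all genes called lower, with the inhibitory Smad gene Smad7 (-0.99, adjusted p = 0.000150), Klf11 (-0.94, adjusted p = 0.000202), Skil (-0.74, adjusted p = 0.000732) and Klf10 first by p. In WT mice 5 of 10 were lower, against 11.0% of all genes, and 1, Smad6, was higher (0.57, adjusted p = 0.0330), with a median of -0.29. Between genotypes after MCAO/R 4 of 10 were lower in Lrg1-/- mice, against 11.7% of all genes, namely Smad6 (-1.19, adjusted p = 0.000550), Id3 (-0.60), Klf11 (-0.47) and Id1 (-0.56), and the stroke effects of Id1 (-1.22, adjusted p = 0.0194), Smad6 (-1.08, adjusted p = 0.0349) and Id3 (-0.90, adjusted p = 0.0396) differed between genotypes. After sham surgery 1 of 10 was called, Id1, which was higher in Lrg1-/- mice (0.66, adjusted p = 0.0138), against 16.6% of all genes in either direction. The Id genes are targets of bone morphogenetic protein signalling as well.

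Of the 19 other family genes, 7 of 10 other Klf genes and 8 of 9 Sp genes were tested in endothelial cells. Klf15, a glucocorticoid-induced factor, was at 0.460, 0.452 and 0.517 CPM in sham + WT and 5.32 and 11.3 CPM in MCAO/R + WT mice, so that it rose from a low level (4.10 ± 0.37 SE, adjusted p = 6.36e-06). Of the other Klf genes 2 rose in WT mice after MCAO/R, Klf15 and Klf5 (1.95, adjusted p = 7.20e-05), and 3 fell, Klf12 (-1.23), Klf11 (-0.49) and Klf8 (-1.16), while 2 Sp genes rose, Sp3 (0.63) and Sp6 (3.14). In that comparison 9.23% of all genes were called higher and 11.0% lower. Between genotypes after MCAO/R 4 of the 7 Klf genes and 4 of the 8 Sp genes were lower in Lrg1-/- mice, against 11.7% of all genes. Klf8 was the 1 called higher (1.02), where 2227 of 16362 genes were called higher. Klf9, another glucocorticoid-induced member, was at 365 and 487 CPM in MCAO/R + WT and 246, 228 and 239.9 CPM in MCAO/R + Lrg1-/- mice, without overlap (-0.84, adjusted p = 0.000365). The stroke effects of Klf15 (-3.13, adjusted p = 0.0170) and Klf9 (-0.79, adjusted p = 0.0232) differed between genotypes.

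Immediate early and dissociation genes also differed between the groups in endothelial cells. The 18 genes of that list summed to 44187 to 47469 CPM in sham + WT, 42006 to 43259 CPM in sham + Lrg1-/-, 35789 to 37372 CPM in MCAO/R + WT and 24706 to 28790 CPM in MCAO/R + Lrg1-/- mice, with no overlap between groups. Between genotypes after MCAO/R 9 of 18 were lower in Lrg1-/- mice and 0 higher (Atf3 -1.03, Dusp1 -0.72, Jun -0.79, Fos -0.70), with a median of -0.38, close to that of the 7 members at -0.39. After MCAO/R 8 of 18 were lower in WT mice, where Klf3, Klf6 and Klf7 rose, and 15 of 18 in Lrg1-/- mice, and after sham surgery 2 were higher and 2 lower between genotypes. Of all genes, 11.7% were called lower between genotypes after MCAO/R, 11.0% lower in WT mice, 9.25% lower in Lrg1-/- mice and 16.6% in either direction after sham surgery. The part of this in the members' differences was not tested.

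In microglia the members split by direction. After MCAO/R Klf6 and Klf13 rose in WT mice, and Klf2, Klf4 and Klf10 fell in Lrg1-/- mice. Between genotypes Klf2 and Klf6 were lower in Lrg1-/- microglia after either surgery, Klf4 was lower after MCAO/R, Klf10 was higher after sham surgery, and Klf13 was higher after sham surgery and lower after MCAO/R. The stroke effects of Klf4, Klf10 and Klf13 differed between genotypes in the test of that difference.

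**Figure D4:**
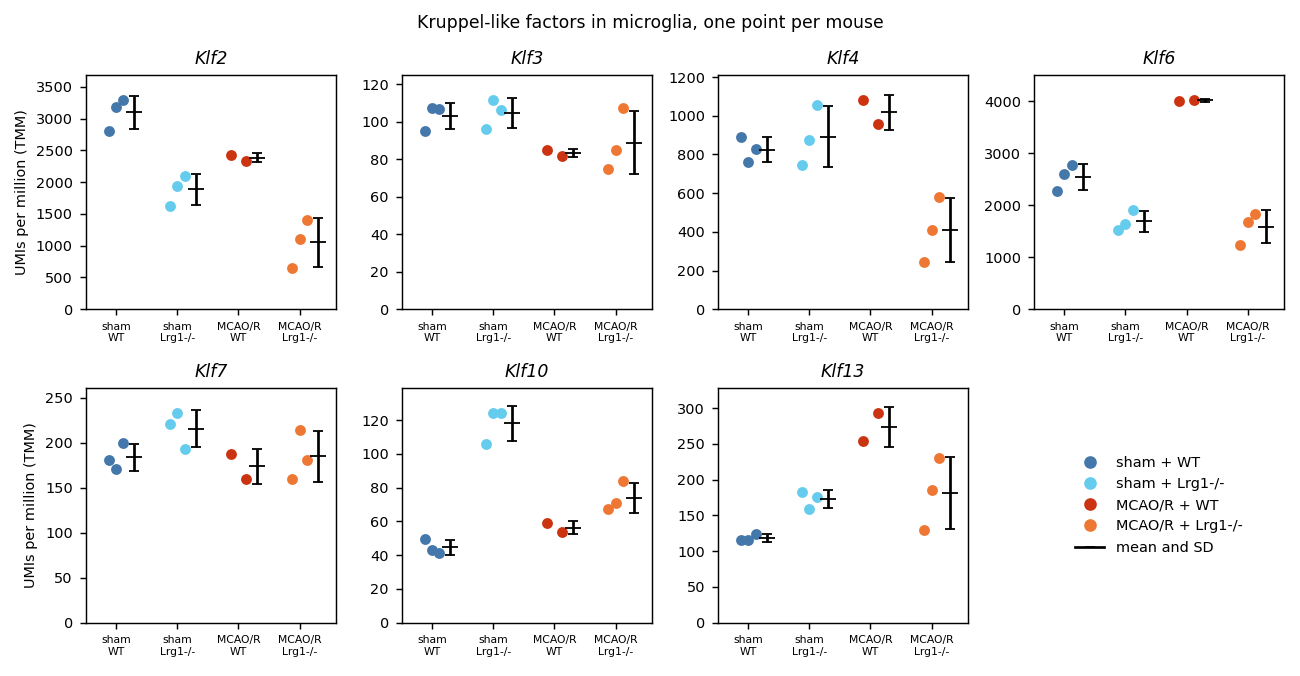
Levels of the 7 members in microglia, in CPM on TMM-adjusted totals, with 1 point per mouse, a bar for the group mean and the 4 groups along the x axis. The MCAO/R + Lrg1-/- points are the lowest for Klf2 and Klf4, the MCAO/R + WT points the highest for Klf6 and Klf13, and the sham + Lrg1-/- points the highest for Klf10.

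Klf2 in microglia was at 2807, 3192 and 3299 CPM in sham + WT and 1628, 1934 and 2094 CPM in sham + Lrg1-/- mice. After MCAO/R Klf2 was at 2432 and 2335 CPM in WT and 647, 1113 and 1406 CPM in Lrg1-/- mice. The 4 groups did not overlap, with sham + WT the highest, then MCAO/R + WT, sham + Lrg1-/- and MCAO/R + Lrg1-/-. Between genotypes Klf2 was lower in Lrg1-/- mice after MCAO/R (-1.17 ± 0.23 SE, adjusted p = 0.00374) and after sham surgery (-0.72 ± 0.21 SE, adjusted p = 0.0271), and it fell after MCAO/R in Lrg1-/- mice (-0.84 ± 0.21 SE, adjusted p = 0.00796). The sham difference did not pass without sham + WT replicate 2 or 3 or without sham + Lrg1-/- replicate 1 or 2 (-0.61 to -0.72, adjusted p from 0.0591 to 0.113). In WT mice the stroke difference did not pass (-0.38, adjusted p = 0.301), except in a fit of only those 2 groups (-0.41, adjusted p = 0.0391, 0.0391 to 0.517 over all alternatives). Klf4 was at 890.1, 759 and 827 CPM in sham + WT and 744, 876 and 1058 CPM in sham + Lrg1-/- mice. After MCAO/R Klf4 was at 1083 and 955 CPM in WT and 245, 409.5 and 578 CPM in Lrg1-/- mice. The sham groups overlapped, the MCAO/R + WT values lay above the sham + WT values, and the MCAO/R + Lrg1-/- values were the lowest. Klf4 was lower in Lrg1-/- mice after MCAO/R (-1.31 ± 0.27 SE, adjusted p = 0.00561) and fell after MCAO/R in Lrg1-/- mice (-1.12 ± 0.25 SE, adjusted p = 0.00417), and the rise in WT mice did not pass (0.30, adjusted p = 0.482).

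Klf6 in microglia was at 2276, 2592 and 2768 CPM in sham + WT and 1518, 1645 and 1908 CPM in sham + Lrg1-/- mice. After MCAO/R Klf6 was at 3998 and 4027 CPM in WT and 1228, 1681 and 1837 CPM in Lrg1-/- mice. Both MCAO/R + WT values were far above every other value, and the Lrg1-/- groups overlapped each other under the sham + WT group. Klf6 rose after MCAO/R in WT mice (0.66 ± 0.17 SE, adjusted p = 0.0111), a call lost without sham + WT replicate 1 (0.58, adjusted p = 0.0523, 0.00289 to 0.129 over all alternatives). It was lower in Lrg1-/- mice after MCAO/R (-1.34 ± 0.17 SE, adjusted p = 0.000101), which held without any 1 library, and after sham surgery (-0.59 ± 0.15 SE, adjusted p = 0.0112), which did not pass without sham + WT replicate 3 or sham + Lrg1-/- replicate 1 or 2 (-0.51 to -0.55, adjusted p from 0.0543 to 0.0648). Klf13 was at 115, 115 and 124 CPM in sham + WT and 183, 159 and 175 CPM in sham + Lrg1-/- mice. After MCAO/R Klf13 was at 254 and 293 CPM in WT and 129.8, 185 and 230.3 CPM in Lrg1-/- mice. The sham + WT values were the lowest and the MCAO/R + WT values the highest, and the Lrg1-/- groups overlapped between them. Klf13 rose after MCAO/R in WT mice (1.21 ± 0.18 SE, adjusted p = 0.000216), which held without any 1 library. It was higher in Lrg1-/- mice after sham surgery (0.55 ± 0.16 SE, adjusted p = 0.0250), not past the threshold without any 1 of the 3 sham + WT mice or sham + Lrg1-/- replicate 1 or 5 (0.50 to 0.58, adjusted p from 0.0538 to 0.0892). It was lower in Lrg1-/- mice after MCAO/R (-0.59 ± 0.18 SE, adjusted p = 0.0304), not past the threshold without MCAO/R + WT replicate 2 or MCAO/R + Lrg1-/- replicate 1 or 2 (-0.40 to -0.60, adjusted p from 0.0577 to 0.137).

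Klf10 in microglia was at 49.4, 42.9 and 41.2 CPM in sham + WT and 106, 124 and 124 CPM in sham + Lrg1-/- mice. After MCAO/R Klf10 was at 58.9 and 53.4 CPM in WT and 67.2, 70.8 and 83.8 CPM in Lrg1-/- mice. No groups overlapped, and the order ran from sham + WT through MCAO/R + WT and MCAO/R + Lrg1-/- to sham + Lrg1-/-. Klf10 was higher in Lrg1-/- mice after sham surgery (1.41 ± 0.13 SE, adjusted p = 5.50e-06) and fell after MCAO/R in Lrg1-/- mice (-0.67 ± 0.13 SE, adjusted p = 0.000861), and both calls held without any 1 library. The difference between genotypes after MCAO/R (0.40, adjusted p = 0.0554) did not pass but was close to the threshold, since it was called without MCAO/R + Lrg1-/- replicate 1 (0.45, adjusted p = 0.0391), without TMM (0.49, adjusted p = 0.0189) and at clustering resolutions of 0.3 (0.41, adjusted p = 0.0494) and 1 (0.40, adjusted p = 0.0479, 0.0189 to 0.522 over all alternatives). Klf3 was at 94.8, 107 and 107 CPM in sham + WT and 96.2, 112 and 106 CPM in sham + Lrg1-/- mice. After MCAO/R Klf3 was at 84.6 and 81.6 CPM in WT and 74.8, 84.7 and 107 CPM in Lrg1-/- mice. Klf7 was at 181, 170.4 and 199.9 CPM in sham + WT and 221, 233 and 193 CPM in sham + Lrg1-/- mice, and after MCAO/R at 188 and 160.1 CPM in WT and 159, 215 and 180.4 CPM in Lrg1-/- mice. The groups compared overlapped for both genes apart from the lower Klf3 of MCAO/R + WT against sham + WT mice, and neither gene was called in any comparison of microglia. Klf3 passed in Lrg1-/- mice after MCAO/R without MCAO/R + Lrg1-/- replicate 5 (-0.39, adjusted p = 0.0308, 0.0308 to 0.408 over all alternatives).

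In counts, 2 of 7 members were called higher in microglia after MCAO/R in WT mice, against 11.9% of the 18323 genes tested, and 3 of 7 lower in Lrg1-/- mice, against 15.1%. Between genotypes after sham surgery 2 of 7 were called higher, against 11.4% of genes, and 2 of 7 lower, against 12.6%. Without TMM scaling the sham calls of Klf2 (-0.52, adjusted p = 0.0619) and Klf6 (-0.40, adjusted p = 0.0509) were lost and Klf7 (0.42, adjusted p = 0.0202) was called higher. After MCAO/R 4 of 7 were called lower, against 10.4% of genes, with a median of the 7 of -0.59 against 0.09 over all genes. The stroke effect was lower in Lrg1-/- than in WT mice for 3 of 7, against 3.62% of genes. These were Klf10 (-1.01 ± 0.19 SE, adjusted p = 0.00715), Klf13 (-1.13 ± 0.24 SE, adjusted p = 0.0134) and Klf4 (-1.42 ± 0.36 SE, adjusted p = 0.0344). The calls of Klf10 and Klf13 held without any 1 library, and that of Klf4 did not pass without any 1 of the 3 sham + WT mice, sham + Lrg1-/- replicate 2 or 5, either MCAO/R + WT mouse or MCAO/R + Lrg1-/- replicate 2 (8 libraries, adjusted p from 0.0630 to 0.0956). Klf6 lay just outside (-0.75, adjusted p = 0.0505) and was called in other settings, among them DESeq2 (-0.81, adjusted p = 0.00835) and without MCAO/R + Lrg1-/- replicate 5 (-0.87, adjusted p = 0.0267, 0.00835 to 0.200 over all alternatives). Shares of microglia with a UMI of Klf4, in cells thinned to 1000 UMIs, were 48.6% in both MCAO/R + WT mice and 18.9 to 34.6% in MCAO/R + Lrg1-/- mice, against 5.53 to 7.72% and 11.2 to 14.9% in oligodendrocytes. Before thinning they were 91.4 to 91.7% and 71.1 to 76.1% in microglia, whose median depths per library were 9220.0 to 12192 and 7387 to 14918 UMIs. In oligodendrocytes they were 51.3 to 59.1% and 40.4 to 44.4%, at median depths of 13576 to 16370.5 and 3500.0 to 6397 UMIs. Over all barcodes past the quality limits, library medians were 9611 to 11504 UMIs in MCAO/R + WT and 3190 to 6456.5 UMIs in MCAO/R + Lrg1-/- mice.

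Microglia came from 7 clusters, whose make-up also moved with surgery and genotype. The cluster led by Ifih1, Ptpro and Slc24a3 held 37.5% to 44.2% of the microglia of MCAO/R + WT and 3.64% to 21.5% of those of MCAO/R + Lrg1-/- mice, and the one led by Tbxas1, Il1a and Cx3cr1 8.17% to 12.2% and 24.8% to 65.6%. Summed over microglia, 6 markers of microglia with high Spp1 and Lpl were at 2443 to 2670 CPM in MCAO/R + WT and 3519 to 14237 CPM in MCAO/R + Lrg1-/- mice, against 487 to 782 CPM in the sham groups. Within clusters, by the same description as for endothelium, Klf4, Klf6 and Klf13 were higher after MCAO/R in WT mice in 5 of 5 clusters, Klf2 was higher in 2 of 5 and lower in 0, and Klf3 was lower in 3 of 5. Klf7 was higher in 1 of 5 and lower in 1 of 5. Klf10, whose WT values over all microglia were higher after MCAO/R, was lower in 3 of 5 clusters and higher in 0. In the cluster led by Ifih1, Ptpro and P2ry12 it was at 40.9 to 44.2 CPM in sham + WT and 17.9 to 22.6 CPM in MCAO/R + WT mice, so that the direction over all microglia was not seen within it. Of all pairs of a gene and a cluster in that comparison 45.3% did not overlap. After MCAO/R Klf6 and Klf13 were lower in Lrg1-/- than WT mice in 4 of 4 clusters, Klf3 was higher in 2 of 4, and Klf7 and Klf10 were higher in 1 of 4 (37.1% of all pairs). Klf2 and Klf4 were lower without overlap in 1 of 4 clusters, the one led by Lpl, Rgs1 and Ccl4. There Klf2 was at 939.6 to 1471 CPM in WT and 352 to 876 CPM in Lrg1-/- mice, and Klf4 at 552 to 787 and 141 to 299.6 CPM. In the other 3 clusters the genotypes overlapped for both genes. Between the surgeries in Lrg1-/- mice, Klf2 and Klf4 overlapped in 3 of 3 clusters, although both fell over all microglia, while Klf10 was lower after MCAO/R in 3 of 3 and Klf7 in 2 of 3. With 5 of 21 pairs lower and 0 higher, the members were near the 24.5% of all pairs without overlap. After sham surgery Klf10 and Klf7 were higher in Lrg1-/- mice in 5 of 5 clusters, Klf13 in 4 of 5, Klf4 in 3 of 5 and Klf3 in 2 of 5, while Klf2 was lower in 3 of 5 and Klf6 in 2 of 5 (37.4% of all pairs).

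In microglia the immediate early and dissociation genes summed to 44751 to 47999 CPM in sham + WT, 40979 to 46561 CPM in MCAO/R + WT, 23897 to 28637 CPM in sham + Lrg1-/- and 18254 to 22841 CPM in MCAO/R + Lrg1-/- mice, and every WT value lay above every Lrg1-/- value. Between genotypes 12 of 18 were lower in Lrg1-/- mice and 0 higher after sham surgery (Jun -1.39, Fos -1.29, Btg2 -1.43, Atf3 -1.15; median -0.84), against 12.6% of all genes called lower. After MCAO/R 14 were lower, against 10.4% of all genes, and 1, Nr4a1, was higher (1.29), with a median of -0.81. Klf2 and Klf6 were called in the same direction as this list after either surgery, and Klf4 and Klf13 after MCAO/R. After sham surgery Klf10 and Klf13 were called in the other direction. Of the stroke effects, 2 of 18 were higher and 2 lower in WT mice and 3 higher and 4 lower in Lrg1-/- mice. In WT mice 11.9% of all 18323 genes were called higher and 1809 lower. In Lrg1-/- mice 3848 were called higher and 15.1% lower, so that 2 of 18 and 3 of 18 were near or under the shares of all genes. Markers of border-associated macrophages, which carry high Klf2 and Klf6, summed to 9.31 to 51.4 CPM in microglia over all libraries. The part of the early genes in the members' differences was not tested. Without cells of over 1% haemoglobin UMIs, 6 members in place of 4 were called between genotypes in endothelial cells after MCAO/R, with Klf4 (-0.39, adjusted p = 0.0353) and Klf13 (-0.37, adjusted p = 0.0397) added. In the same setting Klf2 fell after MCAO/R in Lrg1-/- endothelial cells (-0.40, adjusted p = 0.0298), the stroke effects of Klf6 in microglia differed between genotypes (-0.76, adjusted p = 0.0474), and no member's call in either cell type was lost.

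Of the regulators above Klf2 and Klf4, again not sorted by direction, 2 of 10 were lower in Lrg1-/- microglia after MCAO/R, Mef2a (-0.70, adjusted p = 0.00576) and Ccm2 (-0.59, adjusted p = 0.00538). Krit1 was 1 called higher after MCAO/R (0.69, adjusted p = 0.00166), and after sham surgery Krit1 alone was called (0.60). Of all 18323 genes, 10.4% were called lower and 1973 higher between genotypes after MCAO/R, and 11.4% higher after sham surgery. The 1 of 10 regulators called higher between genotypes was near these shares. For the stroke effect 15.1% of genes were called lower and 3848 higher in Lrg1-/- mice, and 1809 lower and 11.9% higher in WT mice. After MCAO/R 4 of the 10 regulators fell and 1 rose in Lrg1-/- mice (Mef2a -0.99, Mef2c -0.86, Mef2d -0.63, Pdcd10 0.45), and 2 fell and 1 rose in WT mice (Mef2c -0.75, Map3k3 -0.43, Pdcd10 0.40). Of the 7 genes held down by Klf2 or Klf4 in endothelium, F3, which encodes tissue factor, rose after MCAO/R in WT microglia (adjusted p = 0.000133) and was lower in Lrg1-/- mice after MCAO/R (-1.73, adjusted p = 0.00607). After sham surgery Angpt2 was higher in Lrg1-/- microglia (2.39). Of the 6 genes raised by Klf2 or Klf4 in endothelium, edgeR's test called 0 in any comparison of microglia, with 0 at an unadjusted p under 0.05 between genotypes after MCAO/R. In the early response to transforming growth factor beta, 2 of 10 were lower in Lrg1-/- mice after MCAO/R, Skil (-1.30) and Tgif1 (-0.55), and after sham surgery the same 2 were lower (-0.91 and -0.84) and Klf10 alone was higher, against 10.4% and 12.6% of all genes called lower after MCAO/R and sham surgery. Of the other Klf genes, 8 of 10 were tested, and Klf9 was at 12.4, 12.6 and 11.1 CPM in sham + WT, 75.3 and 135 CPM in MCAO/R + WT and 14.5, 23.9 and 45.7 CPM in MCAO/R + Lrg1-/- mice. Klf9 rose after MCAO/R in WT mice (3.12, adjusted p = 0.000596), was lower in Lrg1-/- mice after MCAO/R (-1.86, adjusted p = 0.00990), and its stroke effects differed between genotypes (-2.72, adjusted p = 0.0212). In the same WT comparison Klf15 rose (2.59), and Klf11 (-0.87) and Klf16 (-0.68) fell, and Klf16 was higher in Lrg1-/- mice after MCAO/R (0.78). Of 8 Sp genes tested, 3 were lower, against 10.4% of all genes, and 1 higher in Lrg1-/- mice after MCAO/R, led by Sp4 (-1.30, adjusted p = 0.000627).

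Outside endothelium and microglia, the lower Klf6 of Lrg1-/- mice after MCAO/R was seen in other cells too. Its estimate was under 0 in 12 of 12 cell types tested, endothelial cells and microglia included, and it was called lower in 6 of them. Of the 5019 genes tested in all 12 types, 4.22% had every estimate under 0 and 2.27% were called lower in at least 6. Over the other 10 types 70 tests of members were made between genotypes after MCAO/R, of which 9 were called lower and 1 higher, against 6.54% and 7.35% of all tests in these types. After sham surgery 7 of 70 were called lower and 5 higher, against 4.07% lower and 4.07% higher over all tests. After MCAO/R 5 of 63 tests in WT mice were called higher and 3 lower (against 3.44% and 3.49%), and 5 of 76 in Lrg1-/- mice higher and 5 lower (against 3.26% and 2.98%). For the difference between stroke effects edgeR's test called 0 of 63, against 0.436% of tests in either direction, with 10 at an unadjusted p under 0.05 and 3 by DESeq2 (Klf4 in border-associated macrophages, Klf2 in choroid plexus cells and Klf3 in oligodendrocytes).

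**Figure D5:**
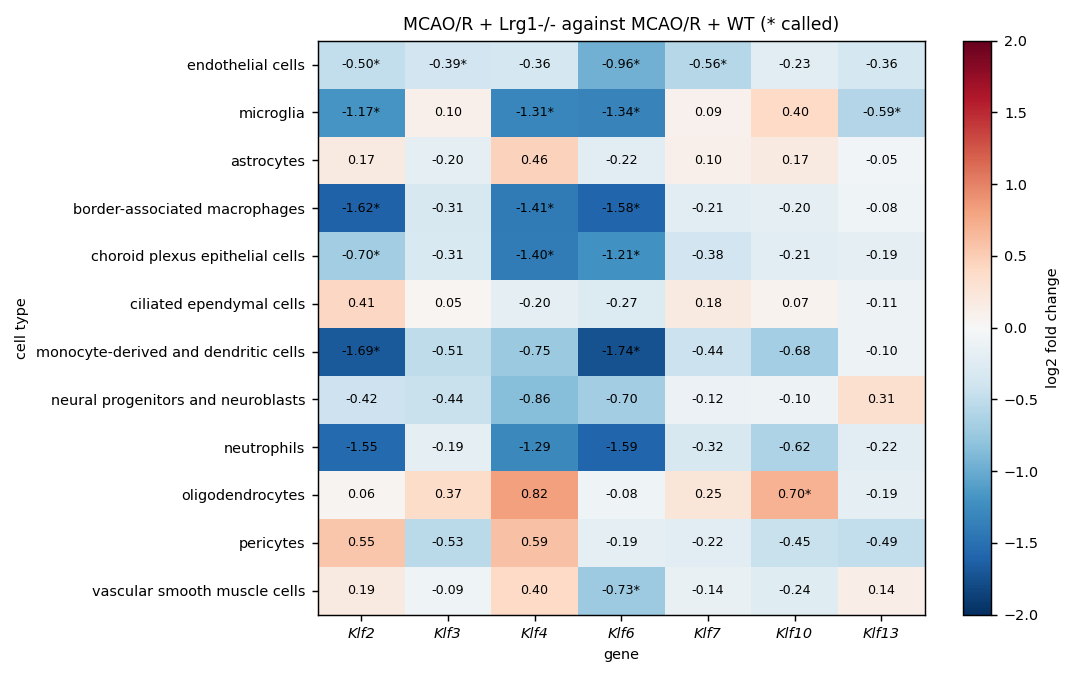
Log2 differences of the 7 members between Lrg1-/- and WT mice after MCAO/R in the cell types tested, with colour for the estimate and a mark for calls by edgeR's quasi-likelihood test. After MCAO/R the Klf6 column is under 0 in 12 of 12 cell types.

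Border-associated macrophages, the resident macrophages of the meninges and vessel walls, carried wide differences of Klf2, Klf4 and Klf6 between genotypes, all 5 of them calls that held without any 1 library. Klf2 there was at 4932, 4115 and 4949 CPM in sham + WT and 1569, 1420.0 and 1314 CPM in sham + Lrg1-/- mice. After MCAO/R Klf2 was at 3721 and 3285 CPM in WT and 1303, 1181 and 934 CPM in Lrg1-/- mice. The genotypes were far apart after sham surgery (-1.70 ± 0.16 SE, adjusted p = 1.74e-05) and after MCAO/R (-1.62 ± 0.18 SE, adjusted p = 2.58e-05). Klf6 was at 4655, 5162 and 5849.9 CPM in sham + WT and 2565, 1569 and 1847 CPM in sham + Lrg1-/- mice. After MCAO/R Klf6 was at 4820.4 and 5704 CPM in WT and 1671, 1715 and 1887 CPM in Lrg1-/- mice, and the value of every Lrg1-/- mouse was lower after sham surgery (-1.39, adjusted p = 0.000296) and after MCAO/R (-1.58, adjusted p = 6.37e-05). Klf4 was lower in Lrg1-/- mice after MCAO/R, at 795, 666 and 691 CPM against 1970.4 and 1834 CPM (-1.41, adjusted p = 0.000111). Monocyte-derived and dendritic cells, many of which enter the brain after stroke, had Klf2 at 1167 and 1487 CPM in MCAO/R + WT and 507, 379 and 352 CPM in MCAO/R + Lrg1-/- mice (-1.69, adjusted p = 0.00662). Klf6 there was at 1541 and 2228 CPM against 571, 509 and 614 CPM (-1.74, adjusted p = 0.0113). Neither passed without MCAO/R + WT replicate 2 (-1.48, adjusted p = 0.0574 for Klf2 and -1.42, adjusted p = 0.0799 for Klf6), while the fall of Klf2 after MCAO/R in Lrg1-/- mice held without any 1 library (-1.72, adjusted p = 0.00194).

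Vascular smooth muscle cells shared the rise of Klf6 after MCAO/R in WT mice, from 431, 408 and 353 CPM to 794 and 656 CPM (0.87, adjusted p = 0.000330). Klf6 was lower in Lrg1-/- mice after MCAO/R, at 381, 446 and 476 CPM (-0.73, adjusted p = 0.00147), and both calls held without any 1 library. In Lrg1-/- smooth muscle Klf13 rose after MCAO/R (0.87, adjusted p = 0.00313). In oligodendrocytes, the myelin-forming cells, Klf3 fell after MCAO/R in WT mice, from 82.5, 78.9 and 84.2 CPM to 34.5 and 35.1 CPM (-1.23 ± 0.15 SE, adjusted p = 4.39e-05), without overlap. Klf13 rose there, from 330.0, 339 and 321 CPM to 616 and 668 CPM (0.96, adjusted p = 6.60e-05), as it did in microglia, and it also rose in Lrg1-/- oligodendrocytes (0.68, adjusted p = 0.00195). These smooth muscle and oligodendrocyte calls held without any 1 library.

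The higher Klf10 of Lrg1-/- microglia after sham surgery was also called in oligodendrocytes, at 32.9, 35.3 and 37.9 CPM against 16.3, 13.1 and 15.9 CPM in WT mice (1.21, adjusted p = 0.00129). After MCAO/R Klf10 was the only member called higher between genotypes in these 10 types, again in oligodendrocytes (0.70, adjusted p = 0.0112), a call lost without MCAO/R + WT replicate 1 (0.61, adjusted p = 0.0696). In T and NK cells after sham surgery Klf3 was at 231, 174 and 329 CPM in WT and 80.3, 97.0 and 97.7 CPM in Lrg1-/- mice (-1.40, adjusted p = 0.00825). Klf6 there was at 1252, 1415 and 1733 CPM and 525, 584 and 569 CPM (-1.39, adjusted p = 0.00172), and these calls held without any 1 library. Of the 40 calls in other cell types 15 held without any 1 library, and the 25 that did not included those in astrocytes, choroid plexus cells, pericytes and red blood cells. The sums came from the same libraries of unequal depth, whose part in these differences was not tested.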

How the data were processed

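Each library was made with the 10x Genomics 3′ kit from the right brain of 1 mouse and deposited as raw UMI counts per gene and barcode. Per the file headers the authors counted with Cell Ranger 7.0.1, while the study's methods name an older version, and the submitters' processing notes also name STAR and mm10. The barcodes are those called as cells before the authors' own limits.

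Barcodes with over 500 genes, over 1000 UMIs and under 25% mitochondrial UMIs were kept, and the 6% with the highest simulated-doublet scores per library were removed. From 2000 variable genes 15 components were computed, each cell was joined to its 3 nearest neighbours in every library, and Leiden clusters (leidenalg 0.10.2, igraph 0.11.9, Python 3.11.15) were cut at a resolution of 3, in place of the planned 1, a change made after the clusters were seen. A cluster was named where its marker score reached 0.65 with a margin of 0.3 over the next type, limits also set after the clusters were seen, and 12 of 41 clusters with 36969 cells stayed unnamed. UMIs were summed per library and cell type of at least 20 cells and fitted over the 4 groups, without covariates, by edgeR 4.0.16 (quasi-likelihood, TMM, its filter on low counts; R 4.3.3), and adjusted p is Benjamini-Hochberg over all genes of a cell type. DESeq2 1.42.0 was one alternative. A gene was called at an adjusted p under 0.05 and over 0.25 on the natural log scale. The depth per library is given above. CPM of marker sums are on plain totals.

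The 7 members and the gene lists were chosen with earlier results of these data known. Every member was named in every comparison, at most 4 called genes per list by smallest p (Klf8, Nr4a1 and the Sp genes were named beyond this limit after their values were seen), and the 3 genes most correlated with each member over cell types. Members in other cell types were named after their values were seen. One gene of the list held down by Klf2 or Klf4 is not reported here, and the list's counts include it. Whether counting used the strand is not given in the sources used here.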

Additional observations from a re-analysis of the deposited data

Results flagged for a closer look

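The stroke effects of 3 members in microglia differed between genotypes in the test of that difference (edgeR's quasi-likelihood test, Benjamini-Hochberg adjusted). The stroke effect of Klf10 was lower in Lrg1-/- than in WT mice by -1.01 on the log2 scale (adjusted p = 0.00715), with the 3 MCAO/R + Lrg1-/- mice under the 3 sham + Lrg1-/- mice and the 2 MCAO/R + WT mice above the 3 sham + WT mice. Within microglial clusters the WT direction of Klf10 was not the same, since in 3 of 5 clusters both MCAO/R + WT values lay under the sham + WT values and in 0 above them. For Klf13 the difference was -1.13 (adjusted p = 0.0134), with both MCAO/R + WT mice above the 3 sham + WT mice and overlapping Lrg1-/- groups. For Klf4 it was -1.42 (adjusted p = 0.0344), with the MCAO/R + Lrg1-/- mice under the sham + Lrg1-/- mice and the MCAO/R + WT mice above the sham + WT mice, and this call was the least stable of the 3. Within microglial clusters the rise of Klf4 in WT mice was seen without overlap in 5 of 5. Its fall in Lrg1-/- mice was seen in 0 of 3.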

How the results depend on the processing

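Of 569 recomputed values of called members in endothelial cells and microglia 511 stayed past the threshold, 58 did not, and none changed sign. Of 957 values of members that were not called 44 became called, and 39 changed sign. Calls that held under every alternative were, in endothelial cells, Klf3 after MCAO/R in WT, Klf4 and Klf10 after MCAO/R in Lrg1-/- mice and Klf6 and Klf7 between genotypes after MCAO/R, and, in microglia, Klf13 after MCAO/R in WT, Klf2, Klf4 and Klf10 after MCAO/R in Lrg1-/- mice, Klf10 between genotypes after sham surgery, Klf2, Klf4 and Klf6 between genotypes after MCAO/R and Klf10 for the difference between stroke effects. No alternative was a fit within clusters. Within microglial clusters, Klf2 and Klf4 were lower without overlap after MCAO/R in Lrg1-/- mice in 0 of 3. Between genotypes after MCAO/R both were lower in 1 of 4. Klf10 was lower after MCAO/R in 3 of 5 clusters in WT and 3 of 3 in Lrg1-/- mice.

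Correlations of same-numbered libraries ran from -0.278 to 0.0357 in endothelial cells and from -0.255 to 0.0336 in microglia, with none of 13 pairs over 0.1. Of 32 differently numbered pairs 2 were over 0.1 in each cell type, up to 0.278 and 0.283. They were taken on deviations from group means, so that the 2 MCAO/R + WT mice mirror each other. Such correlations cannot decide whether the mice were paired. With the replicate block, the endothelial calls after MCAO/R in WT mice went from 4 to 1, those of Klf2 between genotypes in endothelial cells after MCAO/R (-0.54, adjusted p = 0.0666) and of Klf13 in microglia after sham surgery (0.49, adjusted p = 0.106) were lost, and the genes called for the difference between stroke effects from 430 to 95 in endothelial cells and from 1691 to 522 in microglia. DESeq2 called 3 members in place of 0 for the endothelial difference between stroke effects, and over all genes 888 in endothelial cells and 2524 in microglia.

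Left out in turn, single libraries gave these ranges of called members. In endothelial cells they were 1 to 4 (4 with all libraries) after MCAO/R in WT, 2 to 2 in Lrg1-/- mice, 0 to 0 and 3 to 5 (4) between genotypes after sham surgery and MCAO/R, and 0 to 1 (0) for the difference between stroke effects. In microglia they were 1 to 2 (2), 3 to 4 (3), 1 to 4 (4), 3 to 4 (4) and 2 to 4 (3) in the same order, and in the other cell types together 30 to 49 (40). Where 1 MCAO/R + WT mouse was left, it was assumed to vary like the mice of the other groups. At the planned clustering resolution of 1 the counts were 4, 3, 0, 6 and 0 in endothelial cells and 2, 3, 4, 5 and 4 in microglia.

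A naming margin of 0.1, added after seeing the data, which names more mixed clusters, gave 2 endothelial calls after MCAO/R in WT mice, 7 between genotypes after MCAO/R, and in microglia 1 after MCAO/R in WT mice, 1 between genotypes after sham surgery and 1 for the difference between stroke effects. Fitting only the 2 groups compared left 2 endothelial calls between genotypes after MCAO/R and ended that of Klf13 in microglia (-0.65, adjusted p = 0.124). Keeping doublets left 1 microglial call after MCAO/R in WT mice and ended those of Klf13 after sham surgery (0.41, adjusted p = 0.152) and of Klf4 for the difference between stroke effects (-1.38, adjusted p = 0.0900). The cause of these moves was not tested. Without TMM scaling microglia moved from the eighth to place 9 for Klf7, the median microglial gene between genotypes moved from -0.02 to 0.17 after sham surgery and from 0.09 to 0.16 after MCAO/R, and the share of higher among called genes from 47.5% to 72.0% and from 50.9% to 62.9%. After MCAO/R in Lrg1-/- microglia that median moved from 0.03 to -0.10 and the share from 58.2% to 48.0%. Without TMM the sham calls of Klf2 (-0.52, adjusted p = 0.0619) and Klf6 (-0.40, adjusted p = 0.0509) in microglia were lost, and Klf7 after sham surgery (0.42, adjusted p = 0.0202) and Klf10 after MCAO/R (0.49, adjusted p = 0.0189) were called higher. The MCAO/R + WT group of 2 mice, 270 microglia in the smallest library and the unequal depth limit the precision.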
